A study of Mus musculus with 15 samples.

Results

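The tables deposited as chromatin accessibility data of 6DT1, a mouse mammary carcinoma cell line, were searched for regions lying in 4 genes, E2f2, Rara, Pum2 and Cpsf4. A region was taken as a member when it overlapped the mm39 window of one of the genes. In the table made for the Smarcd1 knockdown comparison (the KD table), 38 of 44598 regions were members, 6 in E2f2, 5 in Rara, 23 in Pum2 and 4 in Cpsf4. In the table made for the overexpression comparison (the OE table), 37 of 38036 regions were members, 4 in E2f2, 4 in Rara, 26 in Pum2 and 3 in Cpsf4. Of the 38 KD-table members, 27 overlapped a member of the OE table, and 28 of the 37 OE-table members overlapped one of the KD table. All 38 and all 37 passed the filter on low counts, so every member was tested.

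Both tables hold 15 libraries of untreated cells grown as a monolayer on plastic, 3 from each of 5 lines. EV carried the empty vector, and OE carried an introduced cDNA of Smarcd1, a subunit of the SWI/SNF chromatin remodelling complex. Scr carried a scrambled short hairpin RNA (shRNA), and KD4 and KD6 each carried a stable shRNA against Smarcd1. Per the study's methods, shRNA lines were kept in puromycin and overexpression lines in blasticidin, so the vector, the drug and the line cannot be told apart between Scr and EV. Each group is 1 transduced line. The labels place every biological replicate in a different passage seeded on subsequent days, in a protocol that otherwise describes RNA. The p-values measure the spread between such libraries of 1 line.

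Library totals ran from 16176518 to 23703753 counts for the KD table, and the OE table had totals of 22668622 to 31225956. Library Scr 1 had the smallest total in both. No mm39 annotation was used here, so Smarcd1 itself could not be located as a check of the lines, and gene lists could not be placed on the regions. The sample labels describe RNA extraction and the submitters' processing notes name an RNA aligner, while the study's methods describe transposase-based libraries. Whether the counts hold reads of accessible DNA alone was not tested.

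ATAC-seq reads where a transposase can cut chromatin, which is usually at promoters and enhancers that transcription factors and remodellers such as SWI/SNF hold open. The 4 genes enter the study by different routes. Pum2 and Cpsf4 were themselves knocked down there, and the decay of E2f2 mRNA was reported as unchanged by such knockdowns. RARA was named through its binding motif in open chromatin of sphere cultures, while the libraries here are from monolayers. PUM2, a Pumilio protein, binds short elements in messenger RNA and recruits the CCR4-NOT complex that shortens poly(A) tails, and CPSF4 is a zinc-finger subunit of the complex that recognises the polyadenylation signal and cleaves nascent transcripts. E2F2 is a transcription factor of the E2F family that drives genes of DNA replication and is restrained by retinoblastoma proteins, and RARA is a nuclear receptor that binds DNA with a retinoid X receptor and responds to retinoic acid.

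All 4 genes lie on the plus strand, so their regions run from 5′ to 3′ in the order of their coordinates. The upstream sequences of E2f2 and Pum2 are shown because these genes held the regions with the smallest p-values in the knockdown comparison, and because they differ in how many CpG pairs they carry. Both come from RefSeq on GRCm38.p6, cover the 250 bases before the most 5′ of the gene's listed starts, and have each CpG in capitals. They could not be placed on the mm39 regions, and whether a region covers them was not tested.
E2f2 (chr4:136172024-136172273, plus strand): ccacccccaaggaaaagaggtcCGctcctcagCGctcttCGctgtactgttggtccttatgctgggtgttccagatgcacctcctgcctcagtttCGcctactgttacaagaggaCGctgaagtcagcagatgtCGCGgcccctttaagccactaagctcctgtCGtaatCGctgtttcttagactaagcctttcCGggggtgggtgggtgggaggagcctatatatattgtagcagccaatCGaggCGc
Pum2 (chr12:8673884-8674133, plus strand): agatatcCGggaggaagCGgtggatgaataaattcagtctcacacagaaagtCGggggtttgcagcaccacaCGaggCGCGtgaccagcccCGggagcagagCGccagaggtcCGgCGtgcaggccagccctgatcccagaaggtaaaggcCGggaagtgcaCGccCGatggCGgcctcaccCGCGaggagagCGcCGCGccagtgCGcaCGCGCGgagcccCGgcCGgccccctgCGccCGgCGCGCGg
The E2f2 stretch held 12 CpG pairs and the Pum2 stretch 30, against 13 for Rara and 24 for Cpsf4. The median of 32851 such windows was 6 CpG pairs, and 5.94% of them held as many as Pum2. None of the 4 windows held any of 4 spellings of the E2F site (TTTGGCGC, TTTCGCGC, TTTCCCGC or TTTGCCGC) on either strand, while 1.86% of all windows held at least 1 of them.

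In the KD table, counts were denser at the 3′ ends of the genes than in their other regions. Regions were assigned to the 3′ end when they began no further from the end of a gene's last region than the length of its last exon, which the NCBIM37 annotation gives as 3301 bases for E2f2, 1523 for Rara, 2993 for Pum2 and 906 for Cpsf4. Only these lengths were used, and the regions were not placed on exons. In CPM (each count as a rate of its library total, after TMM scaling of the totals), the 3 E2f2 regions so assigned in the KD table, chr4:135920089-135923341, held 79.9% of the gene's mean CPM in 71.6% of its covered length. The 4 Pum2 regions of chr12:8799716-8802448 held 49.2% of the CPM in 23.8% of the length. For Rara, the 2 regions of chr11:98864313-98865564 held 60.3% in 43.8%. For Cpsf4, the single region chr5:145118211-145118742 held 54.0% in 30.5%. Per kb of region the 3′ end was denser than the rest of the gene in all 4 cases. It held 72.6 against 23.4 CPM per kb in Pum2, 35.3 against 13.2 in Cpsf4, 26.9 against 13.8 in Rara and 15.1 against 9.56 in E2f2. The OE table gave 59.1 against 26.1 in Pum2, 28.5 against 10.3 in Cpsf4 and 26.6 against 18.8 in Rara. For E2f2 it had no region outside the 3′ end to compare.

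**Figure D1:**
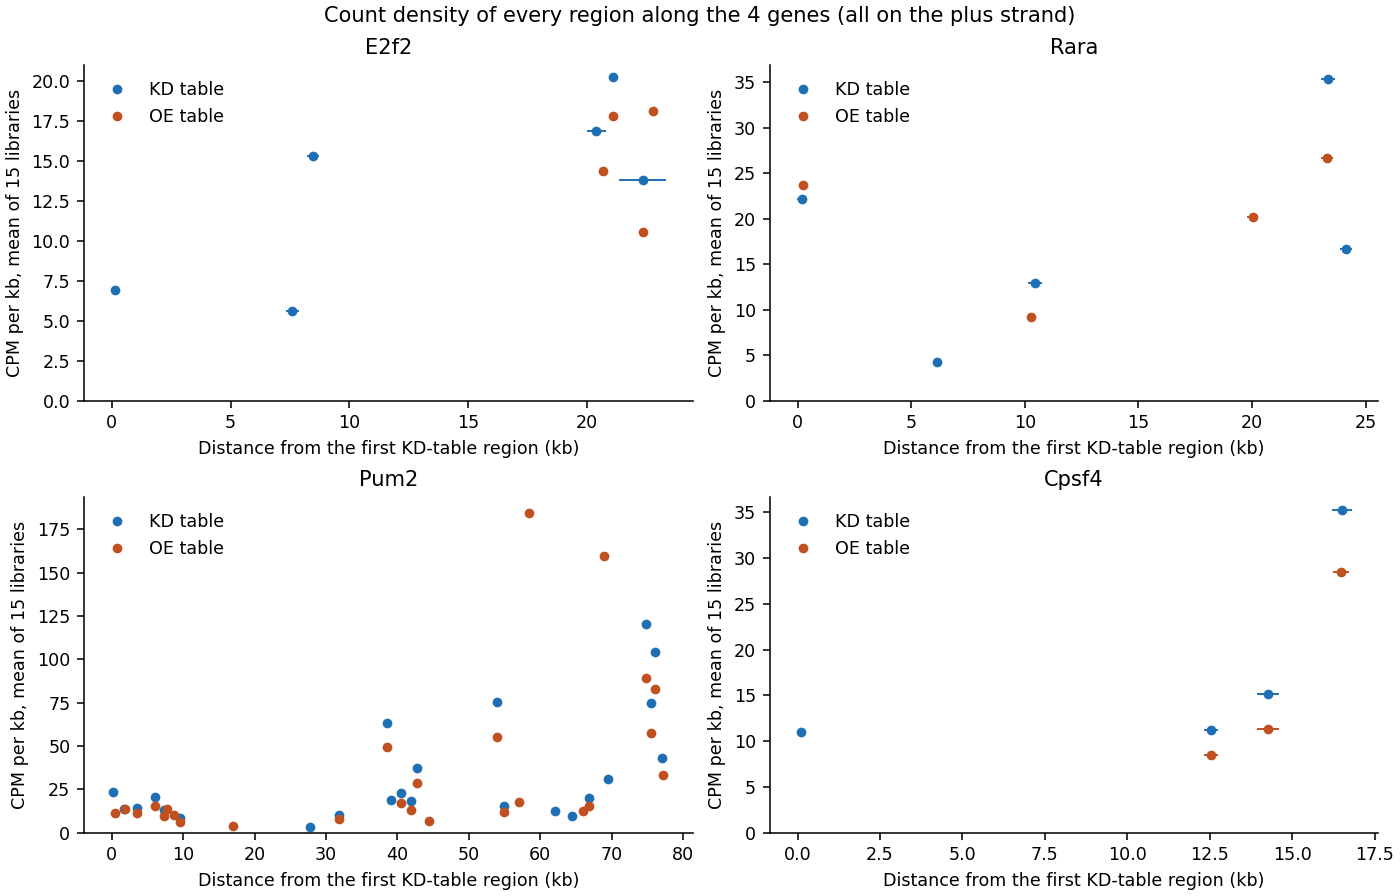
Mean count density over 15 libraries (CPM per kb of region) against distance from the first KD-table region of each gene (kb). Points are regions of the KD table (blue) and the OE table (orange), and lines give the width of a region. In the KD table the densest region of every gene lies at the 3′ end. The same holds for Rara and Cpsf4 in the OE table, whose densest Pum2 regions lie further in, at 184 and 160 CPM per kb.

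Per length, Pum2 was the highest of the 4 genes at 35.1 CPM per kb (KD table) and 32.1 (OE table). Cpsf4 and Rara were at 19.9 and 19.5 CPM per kb by the KD table and 15.8 and 21.6 by the OE table, and E2f2 was at 13.5 and 14.8. The order of Rara, Cpsf4 and E2f2 therefore differed in part between the tables, whose regions have different limits. Within Pum2 the KD-table regions ranged from 0.948 to 56.5 CPM, and the region with most counts was chr12:8800835-8801375. The 26 OE-table regions included chr12:8783302-8783461 at 184 CPM per kb and chr12:8793790-8794028 at 160 CPM per kb, which no KD-table region overlaps. These regions were chosen after their values were seen.

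In KD against Scr, E2f2 was the only gene whose regions all differed in the same direction, and none passed the adjusted threshold. These regions were measured in the same libraries. By mean sum Scr was the lowest line at 40.1 CPM, beside 59.9 in EV, 59.3 in OE, 57.0 in KD4 and 50.1 in KD6. Summed over its 6 regions, E2f2 measured 29.6, 46.4 and 44.4 CPM in the Scr libraries, 52.1, 61.5 and 57.5 in KD4, and 43.8, 55.4 and 51.1 in KD6. The EV libraries measured 62.4, 54.4 and 63.0 CPM, and the OE libraries 59.6, 51.8 and 66.3. All 3 KD4 libraries lay above all 3 Scr libraries, KD6 overlapped Scr, and Scr 1 was the lowest of the 15. The mean of both KD lines against Scr was 1.33-fold (log2 0.41, SE 0.14), with an adjusted p of 0.385 in edgeR's quasi-likelihood test over the whole table and an unadjusted p of 0.00894. An exact two-sided permutation test of the log2 sums (6 against 3 libraries) gave p = 0.0714, where 0.0119 is the smallest p the design allows. Without Scr 1 the log2 difference was 0.23, with an adjusted p of 0.832.

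**Figure D2:**
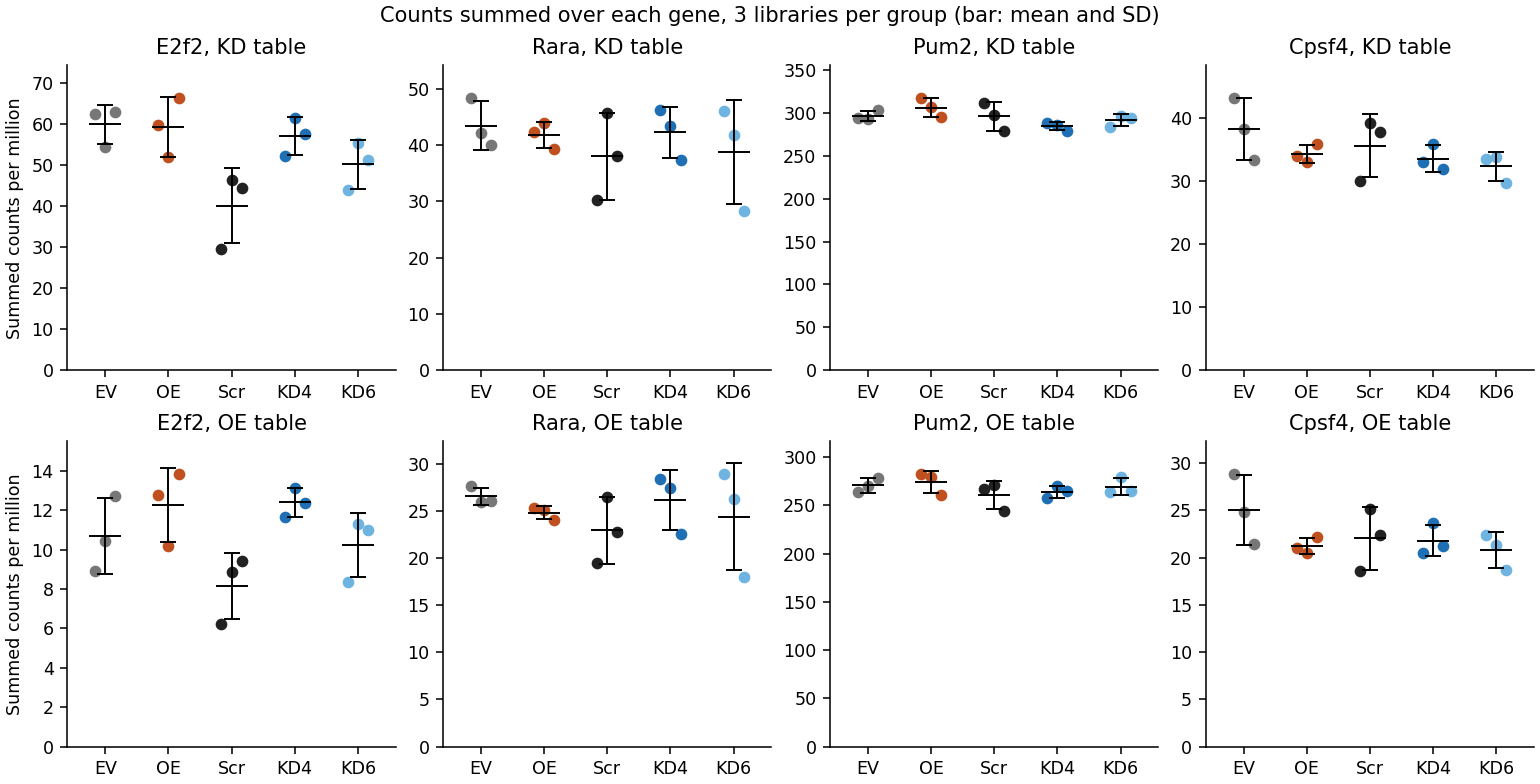
Summed CPM of the member regions of each gene in each library, by line and table, with points for libraries and black bars for the mean and SD of 3. The vertical axis of every panel starts at 0 and has its own upper limit. In the KD table the 3 Scr libraries of E2f2 lie between 29.6 and 46.4 CPM, below all EV and OE libraries.

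All 6 E2f2 regions had positive log2 differences in KD against Scr, from 0.30 to 0.57, with a median of 0.51 beside a median of -0.00505 over all 44289 regions tested. None of the 38 member regions passed the adjusted threshold in this comparison, where edgeR called 0.271% of all regions, and DESeq2 called 0 of them too. At an unadjusted p under 0.05 edgeR gave 5 of the 38 members (13.2%) and DESeq2 5, beside 8.25% of all regions in edgeR. Of these 5, 4 were E2f2 regions with higher counts and 1 was a Pum2 region with lower counts. In edgeR the 5 became 0 without Scr 1 and 10 without KD6 3.

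The E2f2 region with the smallest p was chr4:135920089-135920828, 740 bases long and the first of the 3′ end. It measured 6.37, 10.99 and 9.35 CPM in Scr, 13.2, 16.3 and 13.1 in KD4 and 11.4, 14.3 and 9.46 in KD6. KD4 lay wholly above Scr, while KD6 3 fell within the Scr range. The log2 difference of KD against Scr was 0.53 (SE 0.18, adjusted p = 0.367 in edgeR), and without Scr 1 it was 0.34 (adjusted p = 0.821). Its EV libraries measured 14.2, 13.9 and 14.1 CPM and its OE libraries 14.9, 11.3 and 14.7.

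The E2f2 region with most counts was the last one, chr4:135921471-135923341, which covers 1871 bases. It measured 33.1, 25.8 and 31.0 CPM in EV, 29.6, 27.9 and 34.5 in OE, 14.5, 23.1 and 21.9 in Scr, 22.6, 28.0 and 25.9 in KD4, and 19.2, 25.0 and 25.9 in KD6. Every EV and OE library exceeded every Scr library there, and both KD lines overlapped Scr. Its log2 difference was the smallest of the 6 E2f2 regions, at 0.30 (SE 0.15, adjusted p = 0.653 in edgeR).

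Line by line, E2f2 differed from Scr by a log2 of 0.51 in KD4 (SE 0.16, adjusted p = 0.221) and of 0.32 in KD6 (SE 0.16, adjusted p = 0.875), both in the same edgeR fit. Without Scr 1 these were 0.325 (adjusted p = 0.582) and 0.14 (adjusted p = 1). The exact two-sided permutation test gave p = 0.1 for KD4, the smallest that 3 against 3 libraries allow, and p = 0.3 for KD6. KD6 against KD4 differed by -0.19 (SE 0.16, adjusted p = 0.984), so a difference between the KD lines was not detectable for the sum. The E2f2 region with the widest gap between the KD lines, picked after its values were seen, was chr4:135907425-135907886, at 2.59, 3.58 and 3.94 CPM in KD4, 1.99, 2.64 and 2.01 in KD6 and 1.48, 1.82 and 2.19 in Scr. KD4 was wholly above Scr there, and its range met that of KD6. The 2 KD lines share the Scr libraries, so their differences from Scr are not independent. Among the 38 members, 0 were called by edgeR or DESeq2 in KD4 against Scr (0.576% of all regions in edgeR), in KD6 against Scr (0.149%) or in KD6 against KD4 (0.224%). At an unadjusted p under 0.05 the members numbered 5, 3 and 1 in edgeR, beside 9.74%, 5.87% and 6.37% of all regions, and 5, 1 and 1 in DESeq2. In edgeR the 5 for KD4 ran from 3 without Scr 1 to 8 without KD6 1. The 3 for KD6 became 0 without TMM scaling, under upper-quartile scaling or without Scr 1, KD4 2 or KD6 2, 1 without KD6 1 and 6 without KD6 3. The 1 in KD6 against KD4 became 0 without KD4 2 or KD4 3.

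Pum2, the Pumilio gene, kept nearly the same summed level in every line. Its sums were 294, 292 and 303 CPM in EV, 317, 306 and 295 in OE, 311, 298 and 278 in Scr, 287, 286 and 279 in KD4, and 283, 296 and 294 in KD6. All KD4 libraries lay below all EV and OE libraries here, but overlapped both in the OE table. KD against Scr differed by a log2 of -0.04 (SE 0.10, adjusted p = 0.952 in edgeR), and the sign turned in the OE table. Of its 23 KD-table regions, 7 had positive and 16 negative log2 differences, with a median of -0.10.

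The Pum2 region that lay furthest 5′, chr12:8724993-8725358, had the smallest p of all members in KD against Scr. It measured 13.1, 9.38 and 9.99 CPM in Scr, 7.04, 6.61 and 7.46 in KD4 and 6.76, 8.88 and 9.41 in KD6. All 3 KD4 libraries lay below all Scr libraries, and KD6 3 exceeded Scr 2. The log2 difference was -0.49 (SE 0.15, unadjusted p = 0.00443, adjusted p = 0.296 in edgeR), and without Scr 1 it was -0.34 (adjusted p = 0.786). The EV libraries measured 10.7, 5.99 and 9.46 CPM there and the OE libraries 7.84, 6.33 and 10.6, which spans the levels of all 3 shRNA lines except that of Scr 1. The wider OE-table region over this position, chr12:8725006-8725888, measured 12.8, 7.19 and 10.6 CPM in EV and 9.39, 7.98 and 12.3 in OE, with overlapping ranges.

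The Pum2 region with most counts, chr12:8800835-8801375 at the 3′ end, measured 54.2, 58.2 and 60.5 CPM in EV, 62.3, 60.1 and 53.9 in OE, 59.0, 54.1 and 50.5 in Scr, 57.4, 57.3 and 49.2 in KD4, and 55.1, 57.0 and 58.7 in KD6. The 5 lines overlapped. KD against Scr differed there by a log2 of 0.03 (SE 0.11, adjusted p = 0.962 in edgeR).

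For Rara, the retinoic acid receptor gene, the sums of the 5 lines overlapped in the KD table. Gm46294 and Gm22061 overlap Rara in the GRCm38.p6 gene table, and whether any of the regions belong to them was not tested. The 5 Rara regions summed to 48.4, 42.1 and 39.96 CPM in EV, 42.3, 44.0 and 39.3 in OE, 30.2, 45.7 and 38.0 in Scr, 46.2, 43.3 and 37.3 in KD4, and 46.1, 41.8 and 28.3 in KD6. Libraries Scr 1 and KD6 3 were the lowest of the 15, and every line overlapped every other. KD against Scr differed by a log2 of 0.09 (SE 0.16, adjusted p = 0.920 in edgeR), and without Scr 1 by -0.05. The region with most counts, chr11:98864313-98864813, measured 21.8, 17.5 and 15.7 CPM in EV, 15.6, 18.6 and 17.5 in OE, 12.1, 20.9 and 18.3 in Scr, 20.3, 18.4 and 15.6 in KD4, and 21.0, 20.8 and 11.4 in KD6, and its KD difference was 0.07 (SE 0.19, adjusted p = 0.956 in edgeR). The smallest p in KD against Scr was at the last region, chr11:98865149-98865564, with a log2 difference of 0.30 (SE 0.18, adjusted p = 0.715 in edgeR), and 0.18 without KD6 1.

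Cpsf4, the polyadenylation factor gene, summed to 43.2, 38.2 and 33.3 CPM in EV, 34.0, 33.0 and 35.8 in OE, 30.0, 39.1 and 37.7 in Scr, 32.9, 35.9 and 31.8 in KD4, and 33.5, 33.8 and 29.6 in KD6. The lines overlapped, and KD against Scr differed by a log2 of -0.11 (SE 0.12, adjusted p = 0.856 in edgeR), between -0.04 without Scr 2 and -0.23 without Scr 1. The region at the left edge of its window, chr5:145101971-145102201, cannot be assigned to Cpsf4, because Ptcd1 is the next gene on that side in the GRCm38.p6 gene table. The smallest p in KD against Scr was at chr5:145115927-145116541, which measured 9.59, 11.9 and 10.1 CPM in Scr, 9.29, 9.05 and 7.41 in KD4, 8.42, 8.42 and 10.2 in KD6, 8.68, 9.61 and 9.18 in EV and 8.87, 8.38 and 10.5 in OE. KD4 was wholly below Scr and KD6 was not, and the log2 difference was -0.26 (SE 0.14, adjusted p = 0.668 in edgeR), and -0.16 without Scr 2.

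Overexpression of Smarcd1 moved no member past the threshold. In OE against EV, edgeR and DESeq2 called 0 of the 37 members, and edgeR called 0.0106% of all 37765 regions tested. At an unadjusted p under 0.05 edgeR gave 4 members (10.8%) and DESeq2 1, beside 8.57% of all regions in edgeR. The 4 became 2 without EV 1 or OE 3 and 1 without EV 2 or OE 1. The members' median log2 difference was 0.11, beside 0.0206 over all regions, both with TMM scaling. Without it the median over all regions moved to 0.117. The gene sums moved up too, to 0.30 in E2f2, 0.13 in Pum2, 0.02 in Rara and -0.11 in Cpsf4. With TMM scaling the sums differed by a log2 of 0.21 in E2f2 (SE 0.15, adjusted p = 0.682), 0.04 in Pum2 (SE 0.13, adjusted p = 0.940), -0.08 in Rara (SE 0.11, adjusted p = 0.833) and -0.22 in Cpsf4 (SE 0.12, adjusted p = 0.613). The E2f2 sum moved to 0.09 without EV 1, 0.12 without OE 3, 0.33 without OE 2 and 0.355 without EV 3, and the Cpsf4 sum to -0.12 without EV 1.

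The Cpsf4 difference was widest in its 3′ region, chr5:145118233-145118655. That region measured 17.8, 14.6 and 11.1 CPM in EV and 11.7, 11.9 and 10.6 in OE, beside 8.39, 13.2 and 11.6 in Scr, 11.3, 13.4 and 12.6 in KD4 and 12.96, 11.5 and 8.06 in KD6. EV 3 lay within the OE range, and the log2 difference was -0.32 (SE 0.15, unadjusted p = 0.0441, adjusted p = 0.576 in edgeR), and -0.16 without EV 1. The KD-table region over the same position, chr5:145118211-145118742, measured 26.7, 21.8 and 17.3 CPM in EV and 18.8, 18.6 and 17.3 in OE, again with overlap. Its Scr libraries were at 13.5, 20.2 and 19.9 CPM, its KD4 libraries at 18.7, 19.8 and 18.9 and its KD6 libraries at 19.6, 17.9 and 12.7.

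In Pum2 the smallest p of OE against EV was at chr12:8741824-8742008, the weakest member of the OE table. It measured 0.36, 0.32 and 0.65 CPM in EV, 0.79, 0.96 and 1.02 in OE, 0.87, 0.97 and 0.69 in Scr, 0.54, 0.69 and 0.70 in KD4, and 0.59, 1.16 and 1.13 in KD6. OE lay above EV without overlap, and so did Scr. The log2 difference of OE against EV was 1.07 (SE 0.36, unadjusted p = 0.00840, adjusted p = 0.569 in edgeR). The OE-table Pum2 region with most counts, chr12:8793790-8794028, measured 31.5, 42.1 and 40.5 CPM in EV, 42.0, 42.3 and 37.3 in OE, 34.2, 37.7 and 32.9 in Scr, 35.1, 40.4 and 37.9 in KD4, and 39.9, 41.4 and 37.4 in KD6, with OE and EV overlapping. The smallest p in Rara was at chr11:98851408-98851564, at 1.32, 1.02 and 1.23 CPM in EV, 1.25, 1.42 and 1.99 in OE, 0.92, 1.40 and 1.87 in Scr, 1.79, 1.56 and 1.72 in KD4, and 1.14, 1.39 and 1.64 in KD6. The log2 difference of OE against EV there was 0.40 (SE 0.27, adjusted p = 0.663 in edgeR), and 0.19 without OE 3. Its most counted OE-table region, chr11:98864319-98864727, was at 14.002, 10.4 and 10.0 CPM in EV, 8.63, 10.7 and 10.8 in OE, 7.51, 12.5 and 10.7 in Scr, 12.4, 11.7 and 10.2 in KD4, and 13.7, 13.1 and 6.93 in KD6. Both Rara regions overlapped between EV and OE, but their gene's sum did not. Over its 4 OE-table regions Rara summed to 27.6, 26.0 and 26.0 CPM in EV and 25.4, 25.1 and 24.1 in OE, all OE libraries below all EV libraries, with p = 0.1 in the exact two-sided permutation test, the smallest that 3 against 3 allow.

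The 4 E2f2 regions of the OE table all lay in the 3′ end and covered 726 bases, against 3939 bases for the 6 regions of the KD table. All 4 had positive differences in OE against EV, from 0.08 to 0.37. The smallest p was at chr4:135920656-135920823, at 2.08, 2.14 and 2.54 CPM in EV, 3.18, 2.18 and 3.34 in OE, 1.27, 1.99 and 1.56 in Scr, 2.88, 3.08 and 3.33 in KD4, and 2.35, 2.74 and 1.60 in KD6. OE differed from EV there by a log2 of 0.37 (SE 0.22, adjusted p = 0.625 in edgeR). The region with most counts, chr4:135922750-135922923, was at 2.72, 3.51 and 3.99 CPM in EV, 3.78, 3.17 and 4.48 in OE, 1.79, 2.92 and 2.48 in Scr, 2.71, 3.48 and 3.86 in KD4, and 2.24, 2.63 and 3.62 in KD6. EV and OE overlapped in both regions, and in the KD table the sum differed by a log2 of only -0.01.

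**Figure D3:**
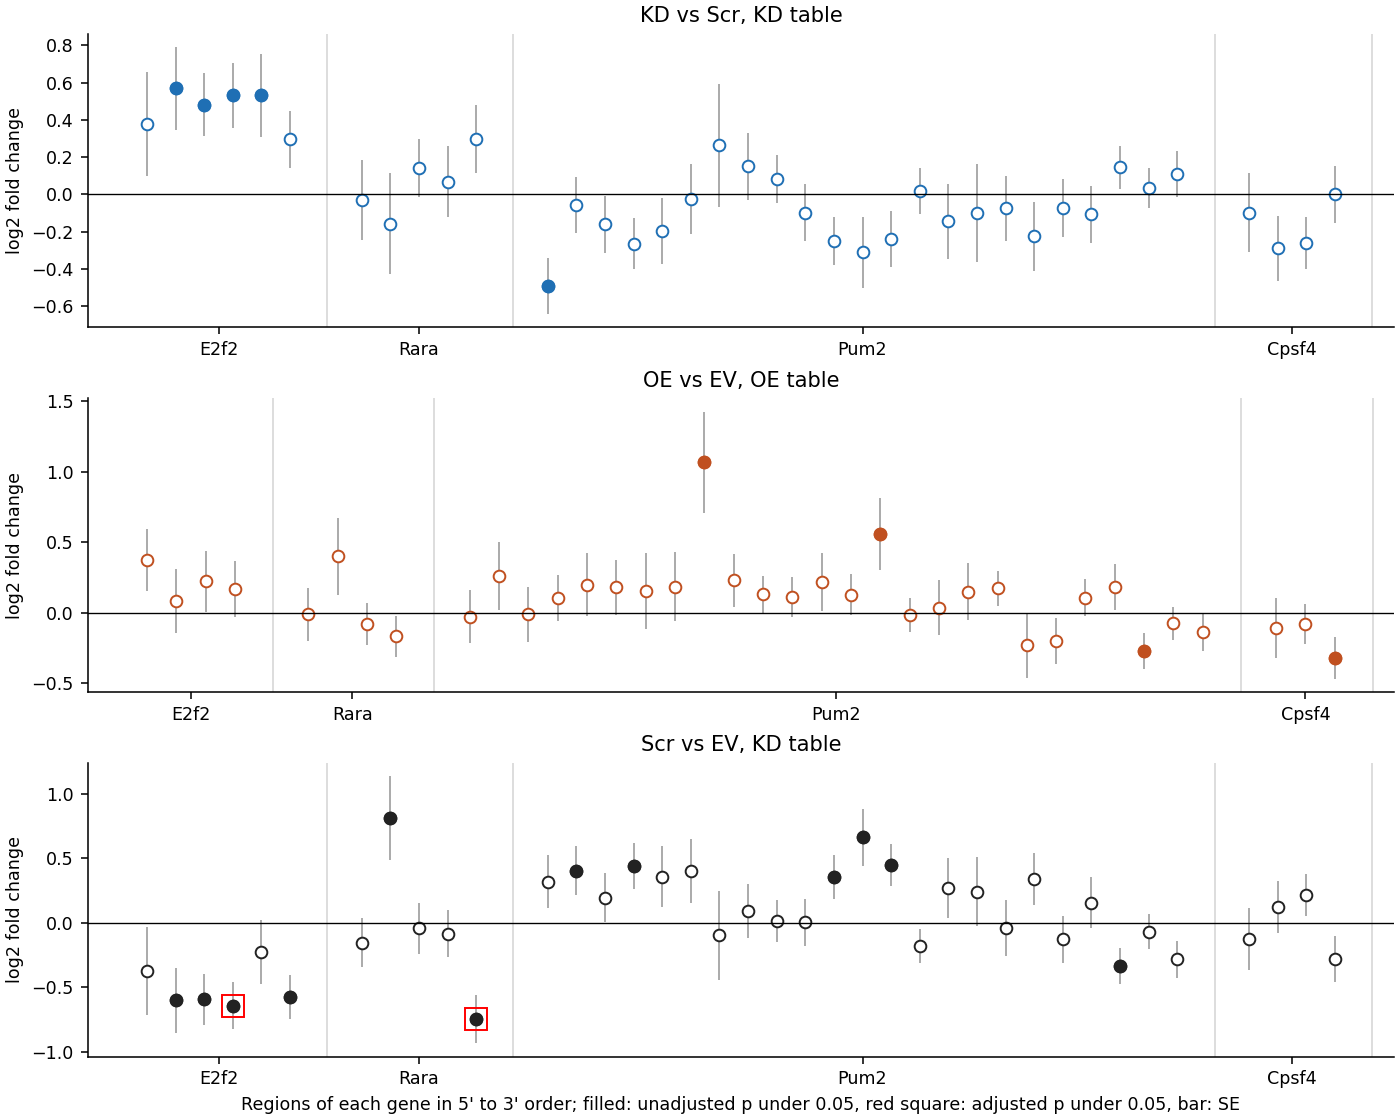
Log2 difference of each member region (points, with bars for the SE of edgeR's fit) in 5′ to 3′ order within each gene, for KD against Scr, OE against EV and Scr against EV. Filled points have an unadjusted p under 0.05 and red squares an adjusted p under 0.05. The 6 E2f2 regions lie above 0 in KD against Scr and below 0 in Scr against EV, which share the Scr libraries.

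The members that passed the adjusted threshold did so between the control lines. In Scr against EV, edgeR called 2 of the 38 KD-table members, a share close to the 4.38% it called among all 43819 regions tested. DESeq2 called 3 members, and its share over all regions is not given here. At an unadjusted p under 0.05 edgeR gave 12 members (31.6%), beside 22.8% of all regions, and 5 without EV 2. Over all regions 958 were called higher and 963 lower, and without TMM scaling 1075 were higher and 436 lower, with the median over all regions at 0.125 in place of 0.025. Among the 37 OE-table members 0 were called, beside 5.34% of all 37671 regions, and 9 had an unadjusted p under 0.05, beside 26.7% of all regions.

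Both called members were 3′ end regions, which made up 3 of the 6 KD-table regions of E2f2 and 2 of the 5 of Rara. Whether calls favoured the 3′ end was not tested. At E2f2 chr4:135920089-135920828, whose library values are given above, Scr lay below EV without overlap (log2 -0.64, SE 0.18, adjusted p = 0.0479 in edgeR). At Rara chr11:98865149-98865564, the libraries measured 10.6, 7.64 and 8.19 CPM in EV, 8.45, 7.80 and 7.21 in OE, 5.32, 5.57 and 4.70 in Scr, 7.38, 7.67 and 6.43 in KD4 and 7.36, 5.63 and 4.02 in KD6. Scr was below EV, OE and KD4 there without overlap and within the range of KD6, and its difference from EV was -0.75 (SE 0.19, adjusted p = 0.0312 in edgeR). The E2f2 call was lost without EV 1, EV 2, EV 3, Scr 1 or Scr 3, with adjusted p of 0.0965, 0.133, 0.0611, 0.171 and 0.130 in turn. The Rara call was lost without EV 1, EV 2, Scr 1 or Scr 3, with adjusted p of 0.126, 0.0577, 0.0928 and 0.124 in turn, all in edgeR.

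For the sum of E2f2, Scr was lower than EV by a log2 of -0.57 (SE 0.16, 0.68-fold), with an adjusted p of 0.0492 in edgeR. All 6 regions were lower, from -0.64 to -0.23, and 4 had an unadjusted p under 0.05, beside 22.8% of all regions in edgeR. These 6 regions make up the sum and were measured in the same libraries. The exact two-sided permutation test gave p = 0.1, the smallest that 3 against 3 allow. The call was lost in the OE table (log2 -0.39, adjusted p = 0.172) and without Scr 1 (log2 -0.39, adjusted p = 0.183). It was also lost without EV 1, EV 2, EV 3 or Scr 3, with adjusted p from 0.0752 to 0.107 in edgeR. KD against Scr and Scr against EV use the same Scr libraries, so the higher E2f2 levels of the KD lines and the lower level of Scr are not separate observations. EV, OE and KD4 overlapped one another in the E2f2 sum. The sums of the other genes differed between Scr and EV by a log2 of -0.18 in Rara (SE 0.16, adjusted p = 0.515), 0.01 in Pum2 (SE 0.15, adjusted p = 0.980) and -0.09 in Cpsf4 (SE 0.15, adjusted p = 0.765), all in edgeR.

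In Pum2 the difference between Scr and EV changed along the gene, and Cpsf4 had a similar split. Of the 19 Pum2 regions outside the 3′ end, 15 had positive log2 differences, with a median of 0.27, and 5 of them had an unadjusted p under 0.05. Over all regions 53.0% had positive differences and 22.8% had an unadjusted p under 0.05 in edgeR. The Pum2 regions were measured in the same libraries. Of the 4 regions at the 3′ end, 1 was positive and the median was -0.17. In Cpsf4 the 3′ end region was at -0.28, beside a median of 0.12 for the other 3 regions. In E2f2 the medians at the 3′ end and elsewhere were -0.58 and -0.59, and in Rara -0.415 and -0.0415. The share of Pum2 CPM held by the 3′ end was 51.6, 53.5 and 49.8% in EV, 51.9, 51.6 and 44.7% in OE, 47.8, 47.5 and 43.3% in Scr, 49.3, 50.4 and 49.4% in KD4, and 52.1, 48.6 and 46.5% in KD6. Scr lay below EV and below KD4 without overlap. Its difference from EV was -5.44 percentage points, with p = 0.1 in an exact two-sided permutation test, again the smallest possible, and in the OE table it was -4.87 points, also at p = 0.1. Across 4 genes and 3 comparisons (OE against EV, KD against Scr and Scr against EV), 12 such tests were made in the KD table, after the values had been seen, and the smallest exact permutation p was 0.0952, for Pum2 in KD against Scr (3.18 points).

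**Figure D4:**
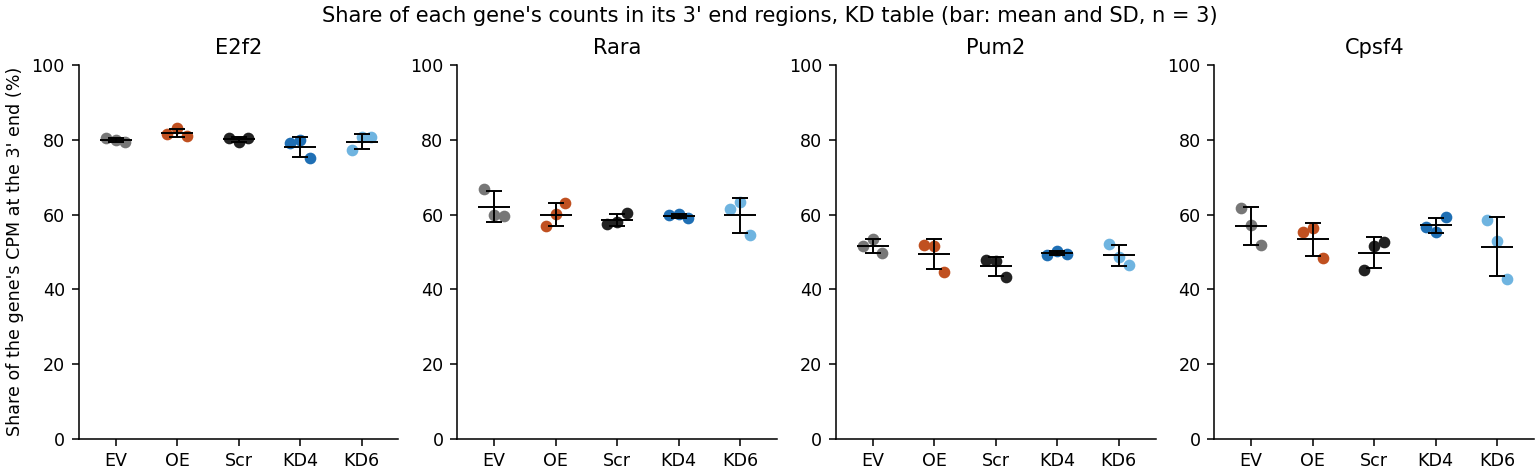
Share of each gene's CPM that lies in its 3′ end regions, in percent, for the 15 libraries of the KD table, with black bars for the mean and SD of 3. E2f2 lies between 75.0 and 83.1%, and the Pum2 share is lower in all 3 Scr libraries than in all 3 EV libraries.

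The share at the 3′ end varied least for E2f2 and most for Cpsf4. In E2f2 it was 80.0% ± 0.461 in EV, 81.9% ± 1.14 in OE, 80.1% ± 0.692 in Scr, 78.0% ± 2.64 in KD4 and 79.5% ± 2.04 in KD6 (SD, n = 3). In Cpsf4 it ran from 42.9% in KD6 3 to 61.8% in EV 1, and in Rara from 54.5% in KD6 3 to 66.9% in EV 1. For E2f2, Rara and Cpsf4 the exact two-sided permutation p ranged from 0.1 to 0.8 over the 3 comparisons. The 0.1 was E2f2 in OE against EV, where all OE libraries lay above all EV libraries by 1.87 points in the mean. KD6 3 had the lowest share in both Rara and Cpsf4, Scr 3 in Pum2 and KD4 3 in E2f2, and the part of library quality in these shares was not tested.

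The order of the lines by mean sum was EV, OE, KD4, KD6 and Scr for E2f2 in the KD table, and KD4, OE, EV, KD6 and Scr in the OE table. For Rara it was EV, KD4, OE, KD6 and Scr in both tables. For Pum2, OE and EV led in both tables, and for Cpsf4, EV and Scr did. In each of these orders every line overlapped its neighbour in the range of its 3 libraries.

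Regions elsewhere in the KD table whose log2 CPM followed the gene sums most closely over the 15 libraries were ranked among 23801 regions of at least 5 CPM on average. For E2f2 the 3 closest were chr6:148946004-148946442 (Pearson's r = 0.926), chr11:69670100-69672370 (0.896) and chr7:80039019-80039328 (0.893). The closest were chr11:69557932-69558149 for Rara (0.906), chr17:24898645-24899183 for Cpsf4 (0.898) and chr2:117009354-117009642 for Pum2 (0.878). All values of one library share its depth and scaling, and these coefficients are descriptions of 15 libraries in 5 lines.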

How the data were processed

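Per the study's methods, chromatin accessibility was profiled by ATAC-seq, but the sample labels describe RNA, and which reads the counts hold was not tested. The 15 monolayer libraries, 3 per line, were grouped by the sample titles. By the same methods, reads were aligned to mm39 with Bowtie2 and peaks were called with MACS in Partek Flow, but STAR 2.7.8a is the aligner in the notes of the submitters. The authors deposited expected counts per region, not normalized, in 1 table per comparison. Whole numbers made up 95.1% of the values for KD and 95.0% for OE, and 0 were zero. Another 15 columns of each table match no sample and were not used.

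Rounded expected counts entered the quasi-likelihood test of edgeR 4.0.16 (R 4.3.3) after TMM scaling and the filterByExpr filter, with a Benjamini-Hochberg FDR of 0.05 over the whole table. For KD against Scr, 3 groups were fitted and the average of both KD lines was contrasted with Scr. The design assumed whole-number counts, and the tests were kept. For a gene sum, its regions were replaced by 1 summed row. Standard errors are the log2 difference over the root of the F statistic. Single values were compared by exact permutation tests in scipy 1.17.1. CPM came from TMM scaling over all 15 libraries of a table. The edgeR fits of OE against EV and of KD against Scr were first tested on simulated data. The fit of Scr against EV and the alternatives were not.

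The genes, windows and lists were chosen with earlier results of these data known. Named for each gene and table were the region with the highest mean CPM and the region with the smallest p in KD against Scr or OE against EV, and 3 regions elsewhere most alike in log2 CPM. The gene lists, the cell type markers and the region nearest each gene start needed an mm39 annotation, which was not used here. The most alike genes are therefore given as regions. DESeq2 1.42.0, other scalings and filters, a replicate block, left-out libraries and the other table were tried as alternatives. Libraries of a line had at least 3.55 times the variance that sampling alone gives, so none was counted as a copy.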

Additional observations from a re-analysis of the deposited data

How the results depend on the processing

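The direction of the gene sums in KD against Scr, in each KD line against Scr and in OE against EV held for most alternatives, and none of these sums passed the threshold under any of them. For the E2f2 sum in KD against Scr the log2 difference was 0.23 without Scr 1 and at most 0.53 when another library was left out, with adjusted p from 0.206 to 0.441 over the alternatives that kept all libraries. In the other table the Pum2 sum reversed to 0.032 in KD against Scr, 0.017 in KD4 and 0.047 in KD6, the E2f2 sum to -0.011 in OE against EV, and the Pum2 sum to -0.061 in Scr against EV. Without TMM scaling the Rara sum reversed to 0.022 in OE against EV and the Cpsf4 sum to 0.020 in Scr against EV. Without the region of highest CPM the Cpsf4 sum reversed to 0.11 in KD6 against KD4 and to 0.14 in Scr against EV. The Pum2 sum in Scr against EV, near 0, was -0.0082 with either RLE scaling or DESeq2 and -0.0043 in the exact permutation test. The cause was not tested.

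The E2f2 call in Scr against EV (log2 -0.57) was lost without TMM scaling (-0.46), under upper-quartile scaling (-0.51), with at least 50 counts in 3 libraries (-0.54), in the other table (-0.39), without the region of highest CPM (-0.55) and in the exact permutation test (-0.60), where 3 against 3 cannot pass 0.05. The member regions called there numbered 2, and 0 without TMM scaling or in the other table, 1 under upper-quartile scaling or the filter at 50 counts, 5 at an FDR of 0.1 and 12 at an unadjusted p under 0.05. In the other comparisons 0 members were called at an FDR of 0.1, and 4 (OE against EV), 5 (KD against Scr), 5 (KD4), 3 (KD6) and 1 (KD6 against KD4) had an unadjusted p under 0.05.

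Leaving out 1 library at a time gave Scr against EV 0 to 4 called members and an E2f2 sum from -0.70 to -0.39. Sums that changed sign ranged from -0.053 to 0.25 (Rara, KD against Scr), -0.12 to 0.21 (Rara, KD6 against Scr), -0.27 to 0.056 (Rara, KD6 against KD4), -0.063 to 0.013 (Pum2, KD6 against Scr), -0.091 to 0.0041 (Cpsf4, KD6 against KD4), -0.20 to 0.023 (Cpsf4, Scr against EV) and -0.026 to 0.055 (Pum2, Scr against EV). The 3′ share, added after seeing the data, changed sign for Pum2 in OE against EV (-3.50 to 0.10 points), Rara in OE against EV (-3.63 to 0.24) and E2f2 in Scr against EV (-0.12 to 0.52), and for Rara in Scr against EV in the other table (1.19). The Cpsf4 sum without the region at the edge of its window, also added after seeing the data, kept its direction and its side of the threshold in every KD-table comparison.

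Over the whole table, calls in KD against Scr numbered 120, 277 with DESeq2, 62 in the other table and 8 to 170 with 1 library left out. In the same order they numbered 255, 479, 111 and 44 to 314 for KD4, and 66, 156, 6 and 7 to 79 for KD6. KD6 against KD4 gave 99, 247 with DESeq2 and 17 to 101 with 1 library left out, OE against EV gave 4, 0 in the other table and 1 to 4, and Scr against EV gave 1921 and 366 to 2852.

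Libraries of the same replicate number did not deviate together in every pair (r from -0.35 to 0.39), so the numbers were not taken to pair libraries. With a replicate block the E2f2 sum in KD against Scr was 0.43 (adjusted p = 0.218 in edgeR), and the block changed no call of a member region or sum except that Pum2 chr12:8766737-8767071 was also called in Scr against EV (adjusted p = 0.0449 in edgeR). The weakest members, near 1 CPM, rest on few counts per library.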
